A study of Mus musculus with 8 samples.

Results

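The genes of the mitochondrial respiratory chain and of the ATP synthase were followed in primary murine microglia cultured with LPS or with vehicle. Members were the protein-coding genes of GENCODE vM21 whose symbols begin with Nduf, Uqcr, Atp5 or Cox4 to Cox8, together with Cyc1, Cycs and the protein-coding genes of mitochondrial DNA. The rule gave 104 genes among the 52636 of the count table, 91 encoded in the nucleus and 13 in mitochondrial DNA, and it used no measured value. Of these, 93 passed the filter on low counts, 83 nuclear and 10 mitochondrial, among 13847 genes tested.

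Microglia of wild-type C57BL/6 mice (C57BL/6N pups in the methods of the study) were shaken off mixed glial cultures made from neonatal brains and kept in medium with 10% serum and 10 ng/ml CSF-1, the growth factor that sustains these cells. The LPS group received 5 µg/ml of lipopolysaccharide, a component of the bacterial outer membrane, and the Vehicle group received vehicle alone, both for 24 hours. Each group had 4 biological replicates, and their RNA was read as single ends of 50 bases, and CSF-1 and serum were present in both groups. Shake-off from a layer of astrocytes limits the purity of such cultures, though the study reports a high purity for its primary microglia. The labels do not say whether the replicates are separate preparations or whether same-numbered libraries share one. The p-values thus measure the spread between these samples.

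The respiratory chain takes electrons from NADH at complex I and from succinate at complex II and passes them through complexes III and IV to oxygen. It pumps protons across the inner mitochondrial membrane. ATP synthase, also called complex V, lets the protons back and makes ATP. Nearly all subunits are encoded in the nucleus, whereas a small set of core subunits is encoded in mitochondrial DNA, transcribed inside the organelle as long precursors and cut into single mRNAs. Macrophages and microglia that meet LPS are known for a shift from respiration towards glycolysis, and their respiratory genes are measured here at the level of mRNA alone.

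The reads were counted only where they aligned to a single place in the genome, so the sequence of a member decides how many of its reads can be counted. Stretches of mitochondrial DNA that were copied into chromosome 1 are annotated there as pseudogenes between positions 24611535 and 24616197 (GRCm38). To show this, a 50-base window from the middle of 2 mitochondrial mRNAs is given, mt-Co2 from chrM:7330-7379 and mt-Nd2 from chrM:4408-4457, both on the plus strand and taken from the GENCODE transcripts. The mt-Co2 window occurs, letter for letter, in 2 other annotated genes, Gm28661 on chromosome 1 and Gm13341 on chromosome 2, and the mt-Nd2 window in 0.
mt-Co2: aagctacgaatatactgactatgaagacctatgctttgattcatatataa
mt-Nd2: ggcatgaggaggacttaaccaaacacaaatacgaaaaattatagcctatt

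Of the windows of mt-Co2, 100% were shared with other annotated genes, and so were 99.9% for mt-Co3, 99.5% for mt-Atp6, 98.8% for mt-Nd4l and 98.0% for mt-Nd3. Windows of mt-Nd4 were shared for 62.2% and those of mt-Co1 for 51.1%, against 8.19% for mt-Nd2, 7.61% for mt-Nd5 and 0% for mt-Nd1, mt-Cytb and mt-Nd6. mt-Co2 had at most 54 counts in a library, mt-Co3 at most 86 and mt-Atp6 at most 41, although all 3 are normally abundant mRNAs. mt-Nd3, mt-Nd4l and mt-Atp8 had at most 3 counts in any library and were not tested, although mt-Atp8 shared 0% of its windows with an annotated gene. TMM CPM of these mRNAs are therefore compared between groups and not with each other.

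Library totals ranged from 20071921 to 30604447 counts, and intervals from such counts cover counting error only. Values are given as TMM CPM, CPM meaning counts relative to the library's size after the trimmed mean of M-values scaling of edgeR, whose factors lay between 1.21 and 1.32 in Vehicle and between 0.701 and 0.833 in LPS. Under this scaling the median log2 fold change of all tested genes was -0.11, and under scaling by total counts alone it was -0.79. LPS replicate 3 stood apart from its group: the median distance from the other libraries of the group was 0.337 on the log2 scale, against 0.101 to 0.226 in the other 7 libraries. Microglia markers were lower for 8 of 10 genes in LPS, with summed levels of 12582 to 15797 TMM CPM in Vehicle and 5066 to 5529 in LPS. The other 2 were level, Aif1 at a mean of 125.6 in Vehicle and 125.8 in LPS and Ctss at 2823 and 2852. Markers of astrocytes summed to 17.7 to 42.5 and 39.0 to 119 TMM CPM (Gjb6 at the floor of 3 counts). Of 6 tested, Gja1 alone was higher, at a mean of 0.873 in Vehicle and 48.6 in LPS, while Gfap, Aqp4 and Aldh1l1 were lower. Markers of oligodendrocyte precursors summed to 18.3 to 82.1 and 1.87 to 20.8 (3 of 5 lower, 0 higher), and those of neurons to 6.69 to 18.7 and 1.07 to 5.80 (4 of 4 lower). Those of oligodendrocytes summed to 150 to 205 and 188 to 237 (Mobp at the floor). Of these, 1 of 4 tested was higher and 1 lower, the latter Mbp at a mean of 84.0 in Vehicle and 15.3 in LPS. Endothelial markers summed to 10.7 to 22.9 and 51.2 to 110 TMM CPM, with Cldn5 and Tek at the floor, and fibroblast and mural markers to 0.497 to 3.52 and 5.30 to 21.3. Their part in the results was not tested, and in bulk RNA fewer cells of a type and less RNA per cell cannot be told apart.

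With edgeR's quasi-likelihood test and Benjamini-Hochberg adjustment over all tested genes, 7 of the 93 tested members were higher after LPS (7.53%) and 34 were lower (36.6%), while 52 did not pass the threshold of 0.05. Among all tested genes 30.3% were higher and 33.8% lower, 64.1% in either direction. The lower share of members was thus near the background, and the higher share was below it. All 4 LPS libraries lay above all 4 Vehicle libraries for 9 members, against 28.7% of all tested genes, and below them for 33 members, against 31.5%. Without LPS replicate 3, 10 members were higher and 41 lower, against 30.0% and 35.0% of all genes tested in that fit, and all 41 members called with every library in the fit were called in the same direction. With a replicate block 6 were higher (29.7% of all tested genes) and 34 lower (35.6%). With total counts only, 83 were lower, against 61.1% of all tested genes, and 1 higher, against 14.4%. With upper quartile scaling 4 were higher (25.9% of all tested genes) and 45 lower (39.6%). Members chosen for their function are described by counts alone, since a test over the list was not made.

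**Figure D1:**
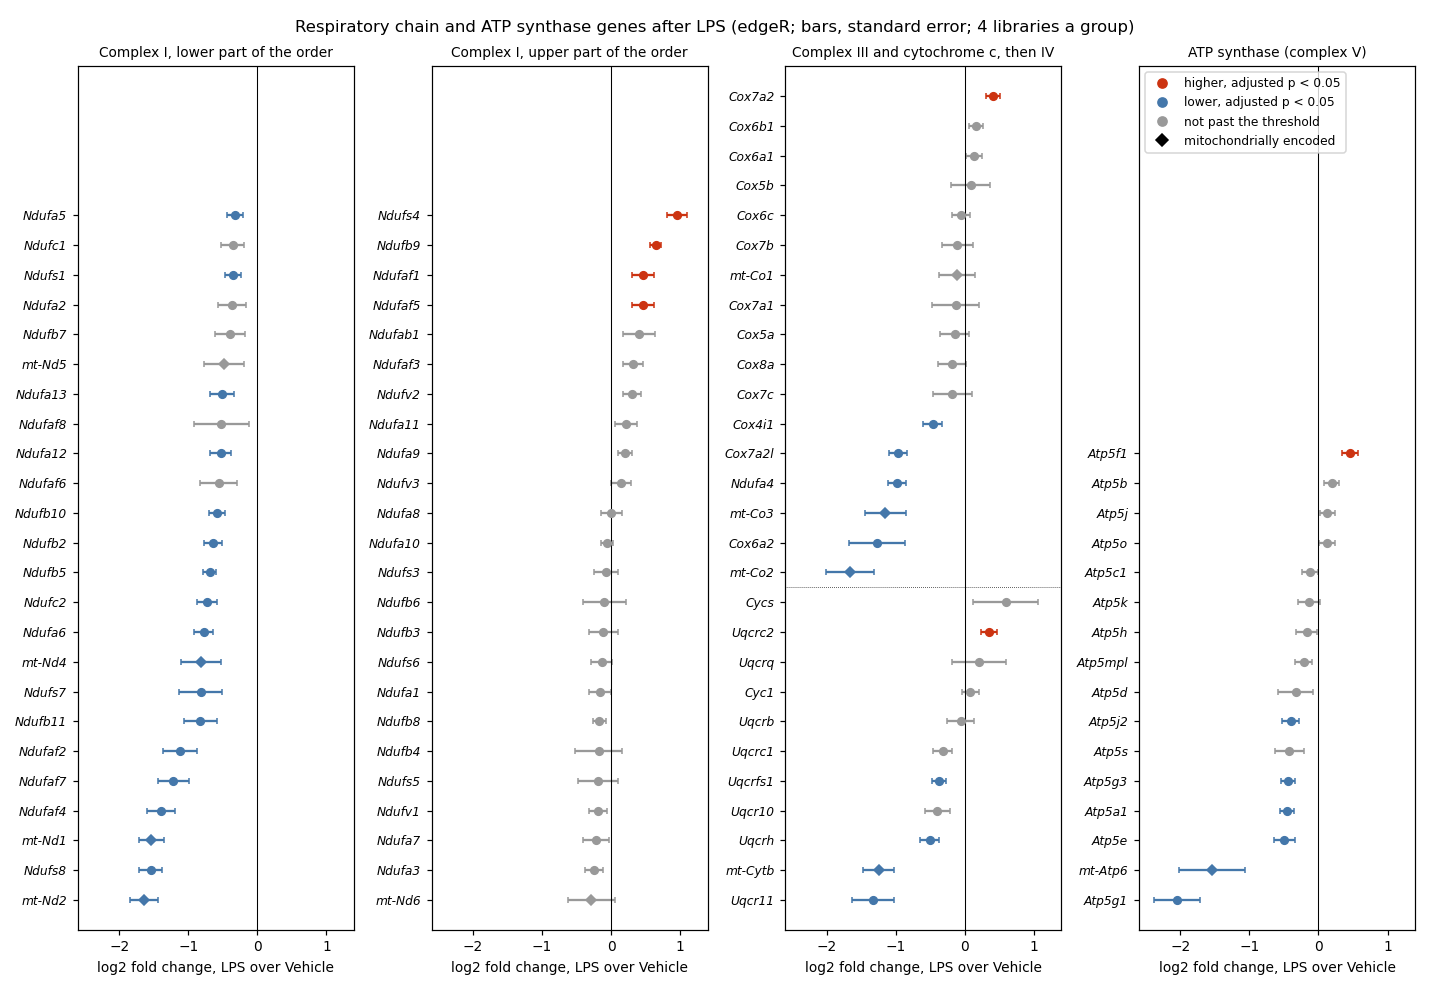
Log2 fold change of 92 of the 93 tested members (LPS over Vehicle, edgeR with TMM scaling), ordered within complexes. Points are fitted values, bars their standard errors (4 libraries a group), colours the call at an adjusted p of 0.05 and diamonds mitochondrially encoded genes. Complex I is split over the first 2 panels; 7 members are called higher, from 0.35 (Uqcrc2) to 0.95 (Ndufs4), and 34 lower, down to -2.05 (Atp5g1). Scaled by total counts alone, 6 of the 7 higher members had values below 0.

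Mitochondrially encoded and nuclear members differed in how far they moved. The median log2 fold change was -1.20 over the 10 tested mitochondrial mRNAs, of which 7 were lower and 0 higher. Over the 83 nuclear members it was -0.18, with 27 lower and 7 higher. Among all tested genes 33.8% were lower and 30.3% higher. Of the 7 lower mitochondrial mRNAs, mt-Co2, mt-Co3 and mt-Atp6 rested on few counts, with 0, 1 and 3 unshared windows. Without LPS replicate 3 the medians were -1.48 and -0.18, and all 10 mitochondrial mRNAs were lower. The 13 mitochondrial mRNAs held 0.436% ± 0.0547 (SD, n = 4) of all counts in Vehicle and 0.159% ± 0.0538 (SD, n = 4) in LPS. Every Vehicle library, at 0.399% to 0.517%, lay above every LPS library, at 0.113% to 0.236%. The 91 nuclear members held 0.453% ± 0.0210 (SD, n = 4) in Vehicle and 0.254% ± 0.0287 (SD, n = 4) in LPS, again with no overlap.

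Summed as TMM CPM, the nuclear members reached 3589 ± 269 in Vehicle and 3196 ± 130 in LPS (SD, n = 4). The lowest Vehicle library stood at 3356 and the highest LPS library at 3334, so the groups lay close without overlap. The mitochondrial mRNAs summed to 3337, 3121, 3389 and 3923 in Vehicle replicates 1 to 4 and to 1622, 1392, 3372 and 1840 in LPS replicates 1 to 4. LPS replicate 3 was thus the only LPS library within the Vehicle range on this scale. The ratio of the mitochondrial to the nuclear sum, which does not depend on scaling, was 0.878 to 1.17 in Vehicle, 0.440 to 0.565 in LPS replicates 1, 2 and 4, and 1.11 in LPS replicate 3.

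**Figure D2:**
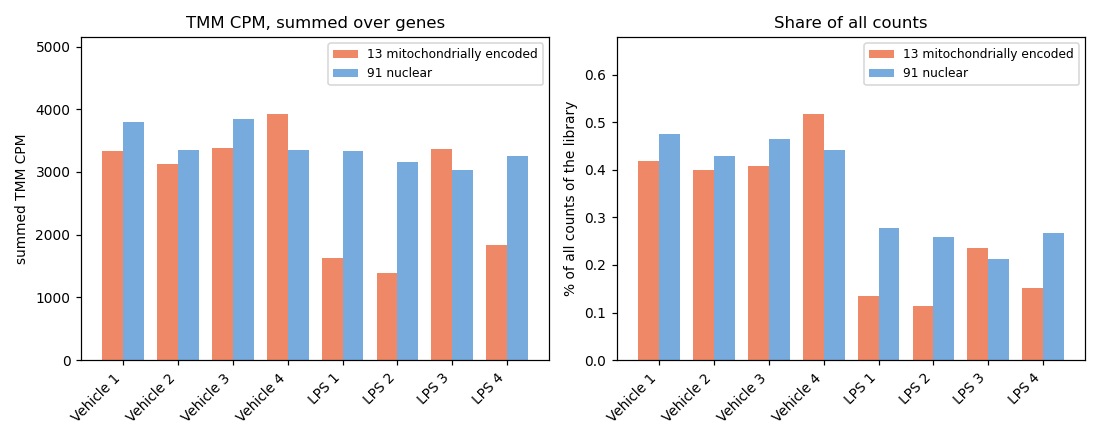
Bars give, for each of the 8 libraries, the summed level of the 13 mitochondrially encoded genes and of the 91 nuclear members, in TMM CPM (left) and in percent of all counts of the library (right). Mitochondrial sums lie at 1392 to 1840 TMM CPM in LPS replicates 1, 2 and 4 and at 3372 in LPS replicate 3, beside 3121 to 3923 in Vehicle.

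Complex I, the NADH dehydrogenase, takes 7 of its core subunits from mitochondrial DNA, and 5 of these were tested. mt-Nd1 (chrM:2751-3707), a membrane subunit near the site of ubiquinone, was at 515, 482, 525 and 632 TMM CPM in Vehicle and at 181, 138, 242 and 182 in LPS. The groups did not overlap, and LPS replicate 3 was the highest of its group. The fitted log2 fold change was -1.54 (SE 0.18, edgeR adjusted p = 5.1e-05), and none of its windows is shared with another gene. mt-Nd2 (chrM:3914-4951), another proton-pumping subunit, was at 254, 276, 266 and 352 in Vehicle and at 80.1, 70.1, 131 and 86.5 in LPS. Here too every LPS library lay below every Vehicle library, with a log2 fold change of -1.64 (SE 0.20, edgeR adjusted p = 7.9e-05).

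The other pumping subunits mt-Nd4 and mt-Nd5 showed how much a single library weighed. mt-Nd4 was at 305, 318, 323 and 419 TMM CPM in Vehicle and at 132, 129, 333 and 183 in LPS, so LPS replicate 3 lay inside the Vehicle range. Its log2 fold change was -0.81 (edgeR adjusted p = 0.033) with all libraries and -1.20 (edgeR adjusted p = 0.00034) without that library. mt-Nd5 was at 551 to 669 in Vehicle and at 308, 266, 743 and 383 in LPS, with LPS replicate 3 above every Vehicle library. Its log2 fold change of -0.48 did not pass (edgeR adjusted p = 0.17), but passed at -0.89 without LPS replicate 3 (edgeR adjusted p = 0.00073) and at -0.61 with a replicate block (edgeR adjusted p = 0.049).

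mt-Nd6 (chrM:13552-14070), encoded on the opposite strand from the other mitochondrial mRNAs, was at 222 to 278 TMM CPM in Vehicle and at 134, 125, 392 and 157 in LPS. LPS replicate 3 was far above all other libraries of both groups, and the log2 fold change was -0.29 with it (edgeR adjusted p = 0.48) and -0.82 without it (edgeR adjusted p = 0.00037). The sources used here do not state that strand was used in counting, so reads of mt-Nd6 and of the transcript on the other strand cannot be told apart.

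mt-Cytb (chrM:14145-15288), the cytochrome b of complex III and the only member of that complex in mitochondrial DNA, was at 695, 682, 673 and 867 TMM CPM in Vehicle. In LPS it was at 282, 211, 456 and 281. All LPS libraries lay below all Vehicle libraries, and the log2 fold change was -1.25 (SE 0.22, edgeR adjusted p = 0.00087).

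The mRNAs of the catalytic subunits of complex IV, the cytochrome c oxidase, were not measured equally well. There were 731 unshared windows for mt-Co1, 0 for mt-Co2 and 1 for mt-Co3, so their changes cannot be compared with each other. mt-Co1 (chrM:5328-6872), which holds the heme and copper centre where oxygen is reduced, was at 740, 586, 774 and 702 TMM CPM in Vehicle and at 504, 451, 1072 and 566 in LPS. The library LPS replicate 3 was the highest of all 8, while the other LPS libraries lay below every Vehicle library. Its log2 fold change was -0.11 (SE 0.26, edgeR adjusted p = 0.72), and -0.46 without LPS replicate 3 (edgeR adjusted p = 0.016). mt-Co2, which takes electrons from cytochrome c, had 54, 35, 41 and 46 counts in Vehicle and 7, 5, 15 and 9 in LPS. It fell by 1.66 on the log2 scale (SE 0.34, edgeR adjusted p = 0.0020), on few counts and with 0 unshared windows, and the origin of these reads was not tested. mt-Co3 fell by 1.15 (edgeR adjusted p = 0.0073) and mt-Atp6, the proton channel subunit of ATP synthase, fell by 1.54 (edgeR adjusted p = 0.018), both also on few counts.

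Per 1000 unshared windows, which allows for length and for copies in annotated genes alone, Vehicle means ran from 958 TMM CPM for mt-Co1 through 680 for mt-Nd4, 666 for mt-Cytb, 593 for mt-Nd1, 524 for mt-Nd6 and 362 for mt-Nd5 to 316 for mt-Nd2. In LPS the order was mt-Co1 at 887, mt-Nd6 at 430, mt-Nd4 at 387, mt-Cytb at 281, mt-Nd5 at 259, mt-Nd1 at 205 and mt-Nd2 at 101. Without LPS replicate 3 the LPS means were 694 for mt-Co1, 295 for both mt-Nd4 and mt-Nd6, 235 for mt-Cytb, 194 for mt-Nd5, 184 for mt-Nd1 and 86.9 for mt-Nd2, so the second place of mt-Nd6 rested on that library. mt-Co1 led and mt-Nd2 came last in each of the 3 orders. Neighbours such as mt-Nd4 and mt-Cytb in Vehicle differed by less than the spread between libraries.

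**Figure D3:**
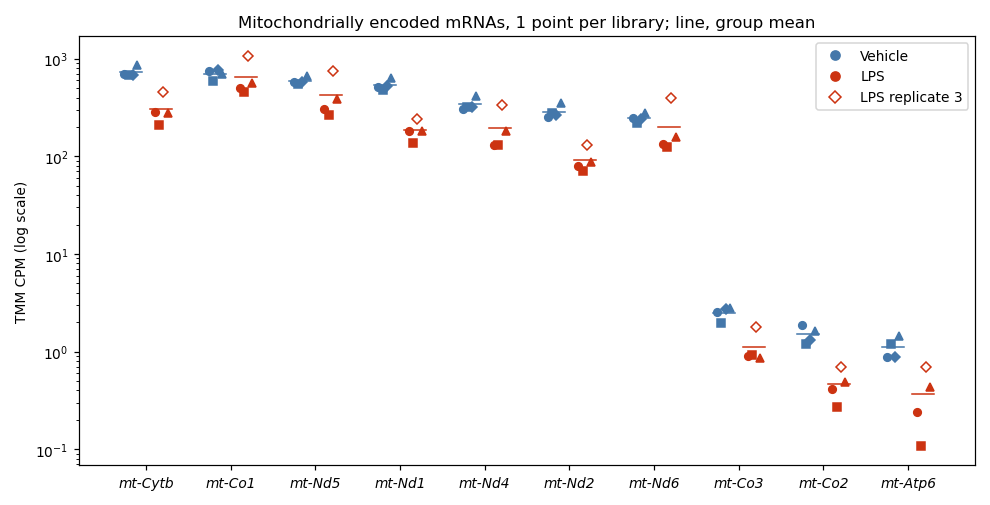
TMM CPM (log axis) of the 10 tested mitochondrially encoded mRNAs, 1 point per library, with a line at the group mean. LPS replicate 3 (open diamond) is the highest LPS library for each of the 10, and for mt-Co1, mt-Nd5 and mt-Nd6 it lies above every Vehicle library. The 3 mRNAs on the right, mt-Co3, mt-Co2 and mt-Atp6, have nearly all of their windows in nuclear copies.

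Among the 44 nuclear members of complex I, 4 were higher and 15 lower, with a median log2 fold change of -0.21. That is 9.09% and 34.1%, against 30.3% and 33.8% of all tested genes. Ndufs4 (chr13:114287795-114388258), an accessory subunit that helps to hold the NADH-binding module on the complex, was at 22.5, 20.8, 24.8 and 22.2 TMM CPM in Vehicle and at 43.4, 37.8, 56.1 and 37.3 in LPS. The lowest LPS library was well above the highest Vehicle library. It had the largest rise of all members, with a log2 fold change of 0.95 (SE 0.14, edgeR adjusted p = 0.00027), and 0.26 when scaled by total counts alone. It was the only one of the 7 higher members whose value stayed above 0 under that scaling.

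Ndufb9 (chr15:58933756-58939488), an accessory subunit of the membrane arm, was at 32.6, 31.1, 33.6 and 30.8 TMM CPM in Vehicle and at 48.9, 50.5, 52.8 and 48.2 in LPS. Both groups were tight and did not overlap, and the log2 fold change was 0.65 (SE 0.08, edgeR adjusted p = 9.4e-05), or -0.03 when scaled by total counts alone. Gm49356, an annotated coding gene that overlaps it on the same strand, shares 23.4% of its windows. The 2 other rises in complex I were assembly factors, which help to build the complex but are no part of it. Ndufaf1 was at 8.96 to 9.48 in Vehicle and at 10.8 to 16.9 in LPS (log2 fold change 0.47, edgeR adjusted p = 0.026). Ndufaf5, which modifies the subunit Ndufs7, was at 3.14 to 4.05 and 4.48 to 5.06 (log2 fold change 0.46, edgeR adjusted p = 0.031, and 0.055 with the replicate block).

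The nuclear core subunits of complex I carry its flavin and its iron-sulfur clusters. Of 7 measured, 3 were lower and 0 higher, against 33.8% and 30.3% of all tested genes. Ndufs8 (chr19:3908863-3912774), which holds a pair of these clusters, was at 22.2, 23.1, 26.4 and 21.1 TMM CPM in Vehicle and at 7.84, 8.22, 5.78 and 9.95 in LPS. Its groups were far apart, and it fell by 1.55 on the log2 scale (SE 0.17, edgeR adjusted p = 3.6e-05). Ndufs7 (chr10:80249121-80256794), the subunit of the last cluster before ubiquinone, was at 29.0, 27.5, 34.3 and 25.9 in Vehicle and at 20.9, 18.6, 6.39 and 20.5 in LPS. The fall was 0.82 with all libraries (edgeR adjusted p = 0.041) and 0.54 without the low LPS replicate 3 (edgeR adjusted p = 0.0031). Ndufs1, the largest core subunit, fell by 0.35 (edgeR adjusted p = 0.020).

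Other core subunits did not pass the test. Ndufs3 had a log2 fold change of -0.07 (edgeR adjusted p = 0.72), with 39.7% of its windows shared with other genes. The flavin-binding Ndufv1 had -0.19 (edgeR adjusted p = 0.21) and its partner Ndufv2 had 0.31 (edgeR adjusted p = 0.058).

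Of the 29 accessory subunits of complex I, 2 were higher and 9 lower, with a median log2 fold change of -0.19. That is 6.90% and 31.0%, against 30.3% and 33.8% of all tested genes. Ndufb11 had the largest fall, by 0.82 on few counts (5.29 to 9.58 TMM CPM in Vehicle and 2.99 to 5.50 in LPS, edgeR adjusted p = 0.014), and its groups overlapped. It was followed by Ndufa6, at 28.2 to 39.7 TMM CPM in Vehicle and 16.9 to 21.5 in LPS (log2 fold change -0.78), and by Ndufc2, at 33.6 to 45.8 and 18.7 to 26.4 (log2 fold change -0.73). Ndufb5 was at 29.6 to 33.2 and 18.7 to 21.2 (log2 fold change -0.69), and Ndufb10 at 35.2 to 40.6 and 21.0 to 27.2 (log2 fold change -0.58). These last 4 had groups that did not overlap and edgeR adjusted p-values from 0.00014 (Ndufb5) to 0.00145 (Ndufc2). Between Ndufb5 and Ndufb10 in size of fall came Ndufb2, at 9.04 to 10.4 and 5.57 to 6.72 (log2 fold change -0.65, edgeR adjusted p = 0.0018), also without overlap. Ndufa5 fell by 0.33 (edgeR adjusted p = 0.036), and this call was lost with the replicate block (edgeR adjusted p = 0.082). Over all complexes, the 49 nuclear members that did not pass had log2 fold changes between -0.56 and 0.59.

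Of the 8 assembly factors of complex I with Nduf names, 2 were higher and 3 lower, near the shares over all tested genes. Ndufaf4 (chr4:24898083-24905001) was at 11.0, 10.1, 8.40 and 11.1 TMM CPM in Vehicle and at 2.93, 4.52, 3.08 and 4.92 in LPS. The groups were well separated, and it fell by 1.39 (SE 0.21, edgeR adjusted p = 0.00026), the largest fall among these 8. Ndufaf7, a methyltransferase, fell by 1.22 (edgeR adjusted p = 0.0010). Ndufaf2, which binds late assembly intermediates, fell by 1.11 (edgeR adjusted p = 0.0029), with 65.6% of its exon length opposite another gene's exons. Ndufaf3, the partner of Ndufaf4 in early assembly, had a log2 fold change of 0.32 (edgeR adjusted p = 0.077), which passed at 0.40 without LPS replicate 3 (edgeR adjusted p = 0.018).

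To show the starts of members that moved in opposite directions, the 250 bases before the start are given for Ndufs4 and Ndufaf1, which rose, and Ndufaf4, which fell. They are from RefSeq on GRCm38.p6, with Ndufs4 from chr13:114388095-114388344 (minus strand), Ndufaf1 from chr2:119662835-119663084 (minus strand) and Ndufaf4 from chr4:24897833-24898082 (plus strand). The Ndufs4 gene of GENCODE reaches to 114388258, so the Ndufs4 window before the RefSeq start lies partly inside that gene. Capitals mark matches on either strand to the NRF1-type motif, which is GCGCA, any base and GCGC, and to the ETS-type motif CCGGAAG.
Ndufs4: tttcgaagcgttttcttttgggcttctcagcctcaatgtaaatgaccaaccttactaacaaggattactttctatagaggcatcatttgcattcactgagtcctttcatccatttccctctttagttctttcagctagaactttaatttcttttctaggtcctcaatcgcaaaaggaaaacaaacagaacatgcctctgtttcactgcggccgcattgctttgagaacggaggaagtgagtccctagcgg
Ndufaf1: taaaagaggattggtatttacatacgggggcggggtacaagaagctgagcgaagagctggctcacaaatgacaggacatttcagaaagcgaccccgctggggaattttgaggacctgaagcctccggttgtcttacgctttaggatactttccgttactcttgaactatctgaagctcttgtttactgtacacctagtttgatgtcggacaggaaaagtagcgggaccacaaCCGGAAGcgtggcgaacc
Ndufaf4: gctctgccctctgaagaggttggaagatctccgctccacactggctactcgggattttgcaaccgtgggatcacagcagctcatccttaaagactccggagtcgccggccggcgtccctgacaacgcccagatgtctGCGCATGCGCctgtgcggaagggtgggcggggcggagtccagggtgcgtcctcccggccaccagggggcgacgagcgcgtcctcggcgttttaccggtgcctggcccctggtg

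Ndufaf4 held an NRF1-type match, Ndufaf1 an ETS-type match and Ndufs4 neither. NRF-1 and the ETS factor GABP are known as regulators of nuclear genes for mitochondria. RefSeq promoters were matched for 72 of the 91 nuclear members, and 11 of them (15.3%) held the NRF1-type motif, against 8.54% of 9831 promoters of tested genes. The ETS-type motif was in 12 (16.7%), against 14.1%, and the YY1-type motif AAGATGGCG in 0, against 1.23%. By call, the NRF1-type motif was in 0 of 4 higher, 2 of 23 lower and 8 of 40 members that did not pass, and the ETS-type motif in 1, 3 and 7 of them. A match is a description of letters and not a site.

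Complex III, which passes electrons from ubiquinol to cytochrome c, had 1 nuclear member higher and 3 lower of 9. That is 11.1% and 33.3%, against 30.3% and 33.8% of all tested genes. Uqcrc2 (chr7:120635176-120659524), a large core protein on the matrix side, was at 76.1, 69.2, 77.6 and 76.1 TMM CPM in Vehicle and at 92.7, 83.3, 117 and 87.9 in LPS. The groups did not overlap, and it rose by 0.35 (SE 0.12, edgeR adjusted p = 0.027), with -0.34 under scaling by total counts alone. Pdzd9, a gene that overlaps it on the other strand, shares 24.2% of the windows of Uqcrc2. Its partner Uqcrc1 was at 94.9 to 111 and 59.5 to 95.0 and did not pass (log2 fold change -0.32, edgeR adjusted p = 0.072).

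Uqcr11 (chr10:80402997-80406830), a small membrane subunit, was at 28.8, 23.9, 25.7 and 22.6 TMM CPM in Vehicle and at 13.4, 11.2, 4.01 and 11.7 in LPS. It fell by 1.33 (SE 0.30, edgeR adjusted p = 0.0036), and by 1.06 without LPS replicate 3, its lowest library (edgeR adjusted p = 8.5e-05). Uqcrfs1, the Rieske iron-sulfur protein, fell by 0.37 (edgeR adjusted p = 0.013), and the hinge protein Uqcrh fell by 0.51 (edgeR adjusted p = 0.0097). Uqcrq was at 33.6, 27.5, 36.0 and 26.6 in Vehicle and at 44.1, 42.2, 9.98 and 46.6 in LPS. Here 3 LPS libraries lay above and LPS replicate 3 below every Vehicle library, and the log2 fold change was 0.21 (edgeR adjusted p = 0.65) with it and 0.52 (edgeR adjusted p = 0.0045) without it.

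The carriers around complex III did not pass the test. Cyc1, the cytochrome c1 of the complex, was at 40.4 to 49.0 TMM CPM in Vehicle and 40.8 to 57.6 in LPS (log2 fold change 0.08, edgeR adjusted p = 0.56). Cycs, cytochrome c itself, had 9 to 26 counts in Vehicle and 10 to 40 in LPS (edgeR adjusted p = 0.29). Its windows are shared for 28.5%, among 76 other annotated genes.

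Of the 20 nuclear subunits and isoforms of complex IV, 14 were tested, and 1 was higher and 4 lower. That is 7.14% and 28.6%, against 30.3% and 33.8% of all tested genes. Cox7a2 (chr9:79755361-79759878), the common form of subunit 7a, was at 44.1, 41.5, 48.7 and 37.7 TMM CPM in Vehicle and at 60.5, 58.0, 55.7 and 54.6 in LPS. It rose by 0.41 (SE 0.10, edgeR adjusted p = 0.0049), with -0.26 under scaling by total counts alone. Cox7a2l (chr17:83501918-83517330), a relative of Cox7a2, was at 86.7, 66.7, 84.0 and 71.8 in Vehicle and at 37.2, 36.6, 48.6 and 35.8 in LPS. Neither gene's groups overlapped, and Cox7a2l fell by 0.97 (SE 0.13, edgeR adjusted p = 0.00017).

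Ndufa4 (chr6:11900292-11907497), named for complex I and now assigned to complex IV, was at 41.8, 40.9, 36.5 and 38.9 TMM CPM in Vehicle and at 24.0, 21.3, 15.5 and 19.5 in LPS. It fell by 0.98 (SE 0.14, edgeR adjusted p = 0.00017), with no shared window. AA467197 is no member by name, but encodes a small protein related to Ndufa4 that takes its place in complex IV of inflamed macrophages. It was at 1.23, 0.900, 2.89 and 0.817 TMM CPM in Vehicle and at 344, 441, 1078 and 456 in LPS. The lowest LPS library lay far above the highest Vehicle library, and the log2 fold change was 8.62 (SE 0.60, edgeR adjusted p = 2.2e-06), or 8.13 without LPS replicate 3.

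Cox4i1 (chr8:120668222-120674207), the nuclear subunit that binds ATP, was at 271, 207, 263 and 206 TMM CPM in Vehicle and at 185, 182, 144 and 175 in LPS. It fell by 0.46 (SE 0.14, edgeR adjusted p = 0.014). The muscle-type Cox6a2 fell by 1.27 on 4 to 39 counts (edgeR adjusted p = 0.020). Its common form Cox6a1 had a log2 fold change of 0.13 (edgeR adjusted p = 0.34), Cox6b1 had 0.16 (edgeR adjusted p = 0.16), Cox5a had -0.14 (edgeR adjusted p = 0.57) and Cox5b had 0.08 (edgeR adjusted p = 0.80). Cox7b, at 10.6 to 13.1 in Vehicle and 7.52 to 16.3 in LPS, had -0.11 (edgeR adjusted p = 0.68) and -0.37 without LPS replicate 3 (edgeR adjusted p = 0.045). The isoforms Cox4i2, Cox6b2, Cox7b2, Cox8b and Cox8c, which belong to lung, testis or muscle, were among the members that did not pass the filter, with at most 8 counts in any library, as was Ndufa4l2.

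ATP synthase had 1 nuclear member higher and 5 lower of 15 tested, against 30.3% and 33.8% of all tested genes. In its catalytic head, Atp5a1, the alpha subunit, was at 531, 512, 533 and 488 TMM CPM in Vehicle and at 393, 368, 356 and 387 in LPS. It fell by 0.46 (SE 0.10, edgeR adjusted p = 0.0029), with no overlap. Atp5b (chr10:128083273-128090391), the beta subunit that carries the catalytic sites, was at 462, 418, 432 and 414 in Vehicle and at 514, 462, 497 and 493 in LPS. The lowest LPS and the highest Vehicle library were equal to 3 digits, and its log2 fold change of 0.19 did not pass (edgeR adjusted p = 0.13).

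The alpha and beta subunits stand in equal number in the enzyme, and the log2 fold changes of their mRNAs were -0.46 and 0.19. Of the central stalk subunits, Atp5e fell by 0.49 (edgeR adjusted p = 0.016), while Atp5c1 had a log2 fold change of -0.13 (edgeR adjusted p = 0.35). In the peripheral stalk, Atp5f1 (chr3:105942698-105960099), the b subunit, was at 56.4, 47.4, 61.7 and 49.3 TMM CPM in Vehicle and at 70.6, 69.7, 83.9 and 71.2 in LPS. It rose by 0.46 (SE 0.11, edgeR adjusted p = 0.0056), with -0.22 under scaling by total counts alone, and 37.6% of its windows are shared with 4 other genes. The other stalk members Atp5h, Atp5j and Atp5o did not pass. Atp5h, with 36.9% of its windows in 18 other genes, passed only without LPS replicate 3 (log2 fold change -0.33, edgeR adjusted p = 0.017), and its processed pseudogene Gm10250 had a mean of 370.0 counts in Vehicle beside 340.2 for Atp5h itself.

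The ring of c subunits, which turns as protons pass, is made from 3 nuclear genes with the same mature protein. Atp5g3 (chr2:73908447-73911326) was at 95.6, 98.1, 103 and 88.2 TMM CPM in Vehicle and at 74.6, 68.0, 61.8 and 77.4 in LPS, and fell by 0.45 (SE 0.10, edgeR adjusted p = 0.0034). Atp5g1 (chr11:96068852-96075670) was at 2.03, 2.14, 1.74 and 2.17 in Vehicle and at 0.359, 0.762, 0.280 and 0.541 in LPS. It fell by 2.05 (SE 0.34, edgeR adjusted p = 0.000495), the largest fall of all members, though on 6 to 62 counts. Atp5g2 had 0 counts in every library, with 38.3% of its windows shared and 1000 windows unshared, and the cause was not tested. Atp5l, with 84.8% of its windows in copies, had 1 count in all.

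Ratios of paired genes within a library do not depend on scaling, and 9 of 14 pairs had both genes past the filter. An exact two-sided permutation test over the 70 divisions of the 8 libraries allows no p below 0.0286, and 5 pairs reached it. After adjustment over the 9 pairs these stood at 0.0514, so 0 passed 0.05. This test exchanged libraries freely. With same-numbered libraries kept as pairs, the exact sign flip test allows no p below 0.125, and the smallest adjusted p was 0.161. In the permutation test without LPS replicate 3, 6 pairs passed. With so few libraries a pair can pass only at the smallest possible p, so passing depends on how many pairs reach it.

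The log2 ratio of Cox7a2l to Cox7a2 was 0.84 ± 0.13 in Vehicle and -0.54 ± 0.23 in LPS (SD, n = 4), so the order of the 2 counts was reversed in every library (exact permutation p = 0.0286). The ratio of AA467197 to Ndufa4 was -4.94 ± 0.88 in Vehicle and 4.72 ± 0.98 in LPS (SD, n = 4), again reversed in 4 of 4 libraries (exact permutation p = 0.0286). Atp5g1 to Atp5g3 differed by -1.63 between the groups and mt-Cytb to Uqcrc2 by -1.64, each without overlap (exact permutation p = 0.0286).

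In the other pairs the groups overlapped. Cox6a2 to Cox6a1 differed by -1.29 and Cox7a1 to Cox7a2 by -0.50 (exact permutation p = 0.0571 for both), and mt-Atp6 to Atp5a1 by -1.27 (exact permutation p = 0.0857). The ratio of mt-Co1 to Cox4i1 was 1.57 ± 0.14 in Vehicle and 1.84 ± 0.73 in LPS (SD, n = 4, exact permutation p = 0.8).

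**Figure D4:**
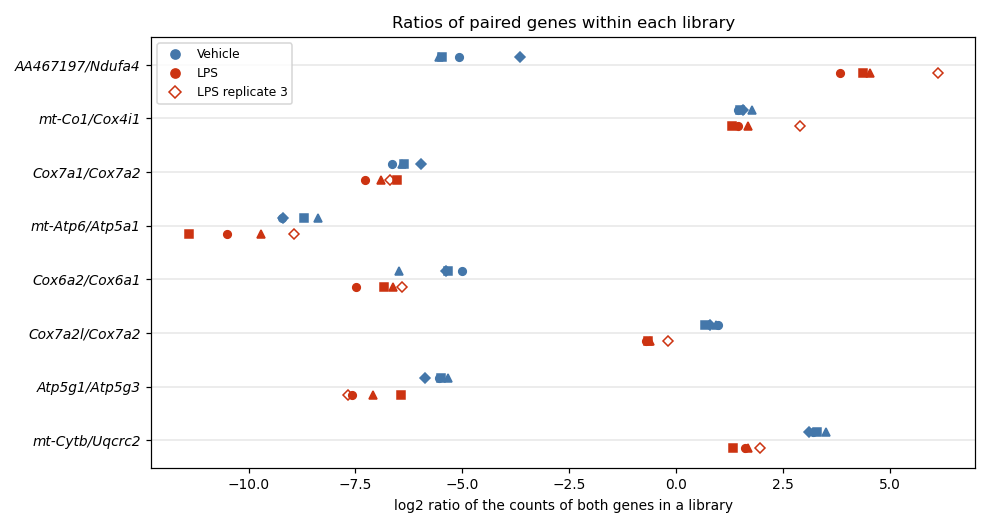
Log2 ratio of the counts of both genes (0.5 added to each) in each library, for 8 of the 9 pairs tested, ordered by the difference between groups. Points are libraries, with LPS replicate 3 as an open diamond. The groups lie apart for AA467197/Ndufa4, Cox7a2l/Cox7a2, Atp5g1/Atp5g3 and mt-Cytb/Uqcrc2, and the mt-Co1/Cox4i1 groups overlap.

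The levels of the members in LPS replicate 3 were set against the other LPS libraries and against base composition. Over the 83 tested nuclear members, its difference from the mean of the other 3 LPS libraries had an SD of 0.56 on the log2 scale, against 0.16 to 0.28 for each of the other 7 libraries. It passed 1 in size for 8 members in this library and for 0 in every other. The 8 were Uqcrq, Ndufs7, Ndufaf8, Uqcr11, Ndufb6, Atp5d and Ndufb7, which were lower, and Cycs, which was higher.

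The median difference was -0.45 for the 21 members with a GC content over 55%, -0.07 for the 48 between 45% and 55% and 0.33 for the 14 under 45%. Spearman's rho with GC content was -0.55 and with transcript length 0.38, across genes, which are not independent replicates. The 10 tested mitochondrial mRNAs, all under 40% GC, had a median difference of 0.78. Whether GC content, length or the culture itself sets LPS replicate 3 apart was not tested. In the other 7 libraries the same rho with GC content lay between -0.38 and 0.46.

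**Figure D5:**
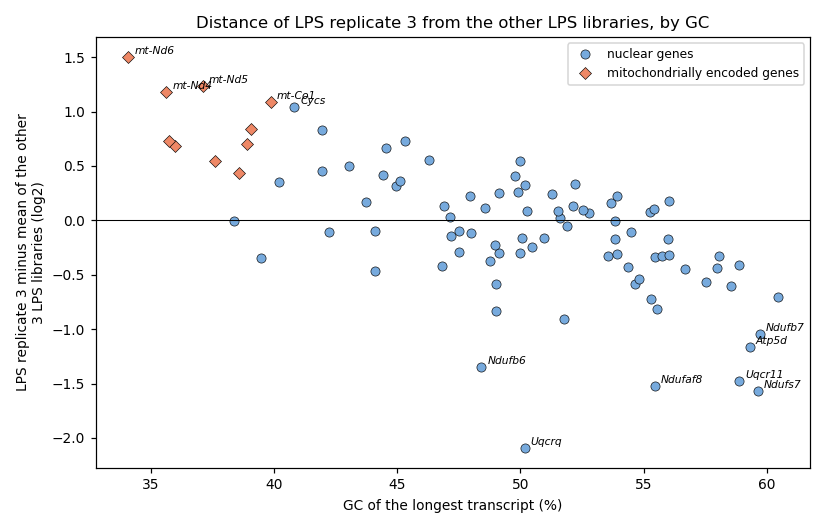
Difference of LPS replicate 3 from the mean of the other 3 LPS libraries (log2), for 83 nuclear and 10 mitochondrially encoded members, against the GC content (%) of the longest transcript. Names mark members over 1 in size. Members under 45% GC lie mostly above 0 and those over 55% mostly below, with medians of 0.33 and -0.45 for nuclear genes.

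Genes that build or feed the respiratory chain, taken from lists of 104 genes of which 98 passed the filter, were higher for 30 and lower for 34, and the middle log2 fold change was -0.05. These counts are near the background of 30.3% higher and 33.8% lower. Of the 8 genes of complex II, the succinate dehydrogenase, 1 was higher and 4 lower. Sdha, its flavoprotein, was at 217 to 243 TMM CPM in Vehicle and 135 to 156 in LPS and fell by 0.66 (edgeR adjusted p = 0.00021), while Sdhb, Sdhc and Sdhd did not pass. Its assembly factor Sdhaf4 fell by 1.08 (edgeR adjusted p = 0.00010), and Sdhaf2, which adds the flavin to Sdha, rose by 0.72 (edgeR adjusted p = 0.0026), with 0.04 under scaling by total counts alone.

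Assembly factors of complex IV were higher for 7 of 19 and lower for 3, against 30.3% and 33.8% of all tested genes. Sco1, a copper chaperone for mt-Co2, was at 7.56 to 10.6 TMM CPM in Vehicle and 16.9 to 51.2 in LPS and rose by 1.86 (edgeR adjusted p = 0.00040). Cox17, which hands copper to it, was at 9.67 to 12.4 and 24.7 to 34.1 and rose by 1.43 (edgeR adjusted p = 1.7e-05). Lrpprc, which stabilises mitochondrial mRNAs, was at 56.4 to 60.0 and 14.6 to 18.7 and fell by 1.78 (edgeR adjusted p = 7.0e-07).

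Transcription and replication genes of mitochondrial DNA were higher for 3 of 12 and lower for 5, against 30.3% and 33.8% of all tested genes. Polrmt, the RNA polymerase of mitochondria, was at 17.5 to 22.7 TMM CPM in Vehicle and at 10.9, 11.2, 2.80 and 12.2 in LPS, and fell by 1.09 (edgeR adjusted p = 0.025), or 0.78 without LPS replicate 3. Its cofactor Tfb2m fell by 1.67 (edgeR adjusted p = 0.00085), Polg, the DNA polymerase, fell by 1.01 (edgeR adjusted p = 5.2e-05), and the elongation factor Tefm rose by 1.07 (edgeR adjusted p = 0.00046). Tfam, which packs and transcribes mitochondrial DNA, was at 22.4 to 25.2 and 21.4 to 24.7 and did not pass (log2 fold change -0.06, edgeR adjusted p = 0.58). Mitochondrial ribosomal protein genes were higher for 16 and lower for 26 of 75 that passed the filter, and their median log2 fold change of -0.11 equalled that of all tested genes to 2 decimals.

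Enzymes that pass electrons to coenzyme Q from other sources were higher for 2 of 6 and lower for 2, against 30.3% and 33.8% of all tested genes. Sqor, which oxidises sulfide, was at 46.0 to 61.0 TMM CPM in Vehicle and 202 to 262 in LPS, and rose by 2.10 (edgeR adjusted p = 1.8e-06). Gpd2, the mitochondrial glycerol 3-phosphate dehydrogenase, was at 24.9 to 46.3 and 119 to 146, and rose by 1.94 (edgeR adjusted p = 2.3e-05). Dhodh, which links pyrimidine synthesis to the chain, fell by 1.30 (edgeR adjusted p = 0.0036).

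The listed carriers Slc25a3, Slc25a4, Slc25a5 and Ucp2 and the channels Vdac1, Vdac2 and Vdac3 all passed the test, 2 higher and 5 lower of 7. Among all tested genes 64.1% passed in either direction. Slc25a4, an ADP/ATP exchanger, was at 106 to 128 TMM CPM in Vehicle and 27.8 to 46.3 in LPS and fell by 1.79 (edgeR adjusted p = 1.3e-05). Ucp2, a carrier of the uncoupling protein family, was at 559 to 701 and 140 to 218 and fell by 1.66 (edgeR adjusted p = 1.8e-05). Atpif1, the inhibitor of ATP synthase, was at 48.3 to 52.0 and 16.2 to 19.9 and fell by 1.43 (edgeR adjusted p = 1.8e-06).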

How the data were processed

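Per the labels and the methods of the study, the authors filtered reads and aligned them with GSNAP to GRCm38 in HTSeqGenie. They deposited a table of uniquely aligned raw read counts per Ensembl gene. The annotation release, the version of GSNAP and the strand setting are not given in the sources used here. The labels name a stranded library kit and another sequencer than the methods, which name a kit not called stranded, and both give single-end reads of 50 bases. Unique alignment lowers the counts of genes with copies, for which the share of each member's 50-base windows found in other GENCODE vM21 transcripts was taken. This share also holds windows of genes that overlap a member at its own place, where a read still aligns to a single place. Pdzd9 at Uqcrc2 and Gm49356 at Ndufb9 are such genes, so the shares of these members do not measure copies.

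From these deposited counts, genes were filtered (filterByExpr, minimum count 10, minimum total 15), scaled by TMM and tested with edgeR 4.0.16 (quasi-likelihood, R 4.3.3) across all genes, LPS against Vehicle, with Benjamini-Hochberg adjustment at 0.05. The script was tested on simulated data. DESeq2 1.42.0, other scalings and filters, a replicate block and leaving out each library were alternatives. Ratios had 0.5 added to each count and used scipy 1.17.1. Library totals of 20071921 to 30604447 counts set the precision, and the floor was 3 counts. IDs without a symbol held 0.00512% of counts.

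Deviations of same-numbered libraries from their group means correlated (r = 0.37, 0.20, 0.17 and 0.11 over 8010 genes). Vehicle replicate 2 with LPS replicate 4 (r = 0.15) and Vehicle replicate 4 with LPS replicate 2 (r = 0.14) exceeded the match of replicate 4. The numbers were thus taken only as a possible pairing, from the data and not from the labels. The main edgeR fit did not use it, and the replicate block was an alternative.

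Named were the mitochondrial mRNAs, the 10 largest rises and falls without overlap, fixed core subunits and isoforms, members that failed the filter, and the largest rise and fall of each accompanying list. Other genes were named after their values were seen: Uqcrq, Uqcrh, Ndufaf2, Ndufaf3, Ndufa5, Ndufa6, Ndufb2, Ndufb5, Ndufb10, Ndufb11, Ndufc2, Cox7b, Atp5e, Atp5h, Atp5j, Atp5o, the genes apart in LPS replicate 3, and, of the lists, those that are not its extremes. The members and lists were chosen with earlier results of these data known. Values of 1 member and of the pair that holds it are not reported here, though both stayed in the fits, counts and adjustments.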

Additional observations from a re-analysis of the deposited data

Results flagged for a closer look

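Single libraries stood apart from the other 3 of their group by Dixon's criterion in 16 of 140 groups of 4 values, from 70 measures. Chance gives about 1 in 20 such groups. The measures include members named after their values were seen, among them Uqcrq, Ndufb7 and Ndufaf8, apart in LPS replicate 3. The count can therefore not be set against that rate. LPS replicate 3 accounted for 11, Vehicle replicate 4 for 3, and Vehicle replicate 3 and LPS replicate 2 for 1 each.

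In LPS replicate 3, mRNAs above the other LPS libraries were mt-Nd6 at 392 TMM CPM (others 125 to 157), mt-Co3 at 1.77 (0.866 to 0.926), Atp5f1 at 83.9 (69.7 to 71.2), Cycs at 1.87 (0.598 to 0.708) and Cox7a2l at 48.6 (35.8 to 37.2). Those below were Uqcrq at 9.98 TMM CPM (42.2 to 46.6), Ndufs7 at 6.39 (18.6 to 20.9), Ndufb7 at 13.6 (27.3 to 29.4), Ndufa6 at 16.9 (21.1 to 21.5), Ndufb10 at 21.0 (26.2 to 27.2) and Ndufaf5 at 4.48 (4.97 to 5.06).

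Vehicle replicate 4 stood above its group for mt-Nd4 at 419 TMM CPM (305 to 323), for mt-Cytb at 867 (673 to 695) and for the share of counts in mitochondrial mRNAs at 0.517% (0.399% to 0.418%). Vehicle replicate 3 stood above its group for Ndufaf8 at 5.58 TMM CPM (3.99 to 4.22). LPS replicate 2 stood below its group for Uqcrfs1 at 42.3 TMM CPM (50.6 to 52.3). The causes were not tested.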

How the results depend on the processing

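The 7 higher members became 11 with DESeq2, 4 without a filter on low counts, with upper quartile scaling, at an adjusted p of 0.01 or without members over 20% shared, 1 with total counts only and 0 at a log2 change of 1. The 34 lower became 83 with total counts only, 21 at 0.01 and 13 at a log2 change of 1. Leaving out each library gave 6 to 10 higher and 25 to 41 lower.

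The nuclear median of -0.18 became -0.12 with DESeq2 and with relative log expression scaling, -0.24 with at least 10 counts in every library, -0.34 with upper quartile scaling (-0.27 for all genes), -0.86 with total counts only (-0.79 for all genes), -0.32 without members over 20% shared, and -0.20 to -0.11 without 1 library, the last without Vehicle replicate 3. The mitochondrial median of -1.20 became -1.90 with total counts only and -1.48 to -1.08 without 1 library.

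With total counts only, 13 values turned negative: Ndufb9 -0.032, Ndufaf1 -0.23, Ndufaf5 -0.21, Atp5f1 -0.22, Cox7a2 -0.26, Uqcrc2 -0.34, Ndufv2 -0.38, Cyc1 -0.58, Atp5b -0.49, Cox6a1 -0.53, Cox6b1 -0.51, Atp5j -0.54 and Atp5o -0.54. Under the other settings run, signs changed only for named members past the threshold in neither fit, such as Ndufb6 at -0.10 and, without LPS replicate 3, 0.17. The count of ratios past 0.05 was 0 with each other library left out and 6 without LPS replicate 3. This count depends on how many pairs reach the smallest p that the permutation test allows. The replicate block gave 6 higher and 34 lower members, with a nuclear median of -0.19, and changed no call of a named member beyond Ndufaf5, Ndufa5 and mt-Nd5.

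A search for copies in the genome was not run, and the search in transcripts was added after seeing the data. Depth limits mt-Co2, mt-Co3, mt-Atp6, Cycs, Atp5g1 and Cox6a2.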

Other observations

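Nuclear regulators of mitochondrial genes were higher for 3 of 9 and lower for 3 (edgeR with Benjamini-Hochberg adjustment, as are all values here). The shares over all tested genes, 30.3% higher and 33.8% lower, stand beside the counts of every list below. Perm1, which acts with PGC-1 and ERR factors, was at 2.63 to 4.74 TMM CPM in Vehicle and 17.9 to 37.1 in LPS and rose by 2.83 (adjusted p = 1.3e-05). Ppargc1b, a coactivator of respiratory genes, was at 1.95 to 4.52 and 0.595 to 1.20 and fell by 1.84 (adjusted p = 0.0015). Esrra was at 26.2 to 35.4 in Vehicle and at 61.6, 60.1, 23.6 and 74.3 in LPS, with LPS replicate 3 the lowest of all 8 libraries, and rose by 0.87 (adjusted p = 0.026, and 0.22 with total counts only). Nrf1 (log2 fold change 0.16, adjusted p = 0.14) and Gabpa (-0.05, adjusted p = 0.65), the factors behind the NRF1-type and ETS-type motifs, did not pass, while the GABP subunit Gabpb1 rose by 1.11 (adjusted p = 4.2e-05).

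Coenzyme Q genes were higher for 4 and lower for 4 of 13, led by Coq10b, which rose by 1.87 (adjusted p = 1.0e-05), and Coq8a, which fell by 1.92 (adjusted p = 0.0013). Assembly factors of complex I outside the Nduf names were higher for 3 and lower for 2 of 8, with Tmem126a up by 0.87 (adjusted p = 0.00023, and 0.20 with total counts only) and the iron-sulfur protein Nubpl at -1.69 (adjusted p = 0.00045). Those of complex III were higher for 1 and lower for 2 of 5, with Uqcc1 at 0.30 (adjusted p = 0.021, and -0.38 with total counts only) and Bcs1l at -0.61 (adjusted p = 0.0088). Of 4 ATP synthase factors 1 was higher, Tmem70 at 0.60 (adjusted p = 0.014, and -0.09 with total counts only). Of 3 genes for cytochrome c and heme a 1 was lower, Fdxr at -0.65. Partners of complex IV, the AA467197 list, were higher for 3 and lower for 1 of 4, with Higd2a at -0.70 (adjusted p = 0.0017). Vdac3 rose by 1.03 (adjusted p = 0.00013). Among ribosomal proteins of mitochondria, Mrpl52 had the largest rise at 1.71 (adjusted p = 0.0021) and Mrps5 the largest fall at -1.27 (adjusted p = 0.00033).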
